A study of Mus musculus with 6 samples.

Results

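Krt5, Krt14 and Krt15 are the keratin genes that mark basal cells of skin epithelium, and they are followed here across cell types and across the days after hair depilation. They were chosen by symbol, as 3 of the 32285 genes counted. Keratins form filaments from pairs of a type II and a type I protein: Krt5 is the type II partner, and Krt14 and Krt15 are type I partners. Krt5 and Krt14 are the classical pair of the basal layer of epidermis and outer root sheath, and Krt15 is best known as a marker of the bulge, where hair follicle (HF) stem cells reside. The filaments are tied to the basement membrane at hemidesmosomes and to neighbouring cells at desmosomes.

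The data are single cell RNA sequencing of dorsal skin from wildtype FVB male mice aged 55 to 57 days, made with a 10x Genomics 3′ kit. The skin was shaved and waxed, which removes the hair shafts and starts regeneration, and was collected at 0 h, after 4 and 16 h, and after 2, 4 and 6 days (d), the order in which the 6 values of a series are given throughout. Each time point is 1 library into which the cells of 2 mice were mixed in equal numbers, so there is no replicate within a time point and mice cannot be separated. All 6 groups share strain, sex, genotype and age range, and the description of shaving and waxing is the same for all of them, 0 h included. The libraries held 72634390 to 112370376 UMIs (unique molecular identifiers, 1 per captured transcript) and 6520 to 11032 cells each after filtering, 50502 in all, and 311 barcodes occurred in more than 1 library (0.62% of the distinct barcodes).

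Cells were clustered without the 3 keratins and the gene lists used below, and clusters were named from marker genes. OB1, OB2 and OB3 are subsets of the outer bulge, uHF.B and uHF.SB are basal and suprabasal cells of the upper HF, and IFE.SB are suprabasal cells of the interfollicular epidermis. The largest cluster, of 16868 cells, scored highest for the interfollicular basal list but had none of that list's markers among its 10 leading genes (Thbs2, Bmp3 and Igfbp3 led it) and is called cluster 0. In every library, all 7 OB1 markers, 7 of 8 OB2 markers, all 9 OB3 markers, 5 of 7 uHF.B markers and 4 of 6 interfollicular basal markers were higher in the cluster than in the other cells. The uHF.SB cells include a cluster led by Krt1 and Krt10, genes of the interfollicular list, so values for the cluster led by Defb6 and Cst6 alone are given beside them.

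All 3 genes lie on the minus strand of the mm10 genome, and positions are those of the GENCODE annotation. Krt14 spans chromosome 11 from 100203162 to 100207548 in 8 exons, Krt15 lies on the same chromosome from 100131758 to 100135928 in 8 exons, and Krt5 spans chromosome 15 from 101707070 to 101712898 in 9 exons. A 3′ assay counts the end of the transcript, so the last 60 bases of each coding sequence, all within the last exon, are printed as a sample of the stretch near which the messages are read. The stop codon is in capitals.
Krt5 (chr15:101707436-101707495): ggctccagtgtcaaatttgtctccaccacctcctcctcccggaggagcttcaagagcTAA
Krt14 (chr11:100203312-100203371): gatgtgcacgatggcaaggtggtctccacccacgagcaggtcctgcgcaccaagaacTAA
Krt15 (chr11:100132017-100132076): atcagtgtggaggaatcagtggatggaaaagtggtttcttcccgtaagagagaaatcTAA
Compared position by position back from the stop codon, with no gaps allowed, Krt14 and Krt15 had the same base at 18 of these 60 positions and Krt5 and Krt14 at 23. Such a count misses shared stretches that lie at different distances from the stop codon, so it does not rank the pairs by likeness. In the last 500 bases of the transcripts, Krt5 and Krt15 shared no run of 60 bases with a transcript of another gene. Krt14 shared 23 of its 441 such runs with Krt17, a type I keratin of stressed and follicular epithelium. A read that lay wholly in these runs could not be assigned to 1 gene, and whether any did was not examined.

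Levels are given as CPM, the UMIs of a gene per 1000000 UMIs of all cells of a type in a library. T cells, which do not make these keratins, give the level that free RNA adds. Their CD3 genes were present (Cd3g at 5187 to 9967 CPM), yet Krt14 was found at 287 to 838 CPM, Krt5 at 147 to 329 and Krt15 at 18.1 to 182. Within each library these T cell levels were 2.25% to 8.06% of the level over all cells of that library. T cells held fewer UMIs (at 0 h a median of 2701.5 per cell, against 8689 in cluster 0 and 5554 in OB1). A gene below the T cell level in CPM can therefore be above it in UMIs per cell. The number of Krt15 UMIs per Krt14 UMI in T cells was 0.581 at 0 h and 0.0271 at 4 h, against 0.627 and 0.0553 over all cells, so the background moved with the library.

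**Figure D1:**
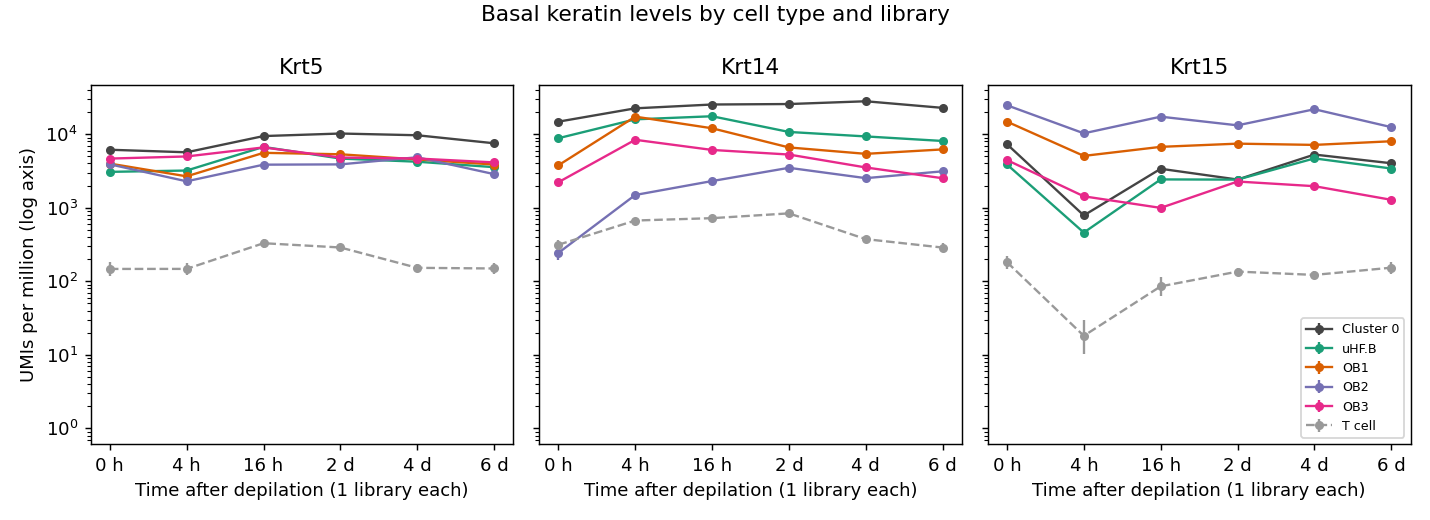
CPM (log axis) of Krt5, Krt14 and Krt15 by time after depilation for cluster 0, uHF.B, OB1, OB2, OB3 and T cells, 1 library per time point, with exact 95% Poisson intervals that cover counting error only. Krt15 is lowest at 4 h in cluster 0, uHF.B, OB1 and OB2, while Krt14 is higher at 4 h than at 0 h in all 5 epithelial types shown.

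Krt15, the bulge-associated type I keratin, had its highest median level in OB2 and its next in OB1. In OB2 it stood at 24733, 10273, 17301, 13191, 21836 and 12468 CPM. In OB1 it stood at 14821, 5068, 6727, 7437, 7150 and 8015 CPM. OB2 was above OB1 in 6 of 6 libraries, by 1.03 ± 0.38 on the log2 scale (mean ± SD over libraries).

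In cluster 0 and uHF.B Krt15 was present at lower levels and its lowest value was again at 4 h. Cluster 0 held 7317, 786, 3387, 2417, 5286 and 4026 CPM. In uHF.B the values were 3877, 460, 2427, 2413, 4690 and 3414 CPM. The 4 h level was thus 9.31-fold lower than the 0 h level in cluster 0 and 8.43-fold lower in uHF.B, against 2.92-fold in OB1 and 2.41-fold in OB2. These are single libraries, and the differences between cell types in the size of this ratio were not tested.

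OB3 had the least Krt15 among the outer bulge subsets. Its level was 4454, 1430, 995, 2272, 1964 and 1282 CPM. OB3 was below OB1 in 6 of 6 libraries, at -2.09 ± 0.48 on the log2 scale. Against cluster 0 it was lower in 5 of 6 libraries, and the mean difference of -0.80 was smaller than its SD of 1.03.

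The 4 h value of OB1 rests on a mixture. OB1 consists of a cluster led by Krt24 and Cd34 and a cluster led by Cpa4, Anxa3 and Has2, the last a hyaluronan synthase. The cells of the Cpa4 cluster came almost wholly from 4 h (231 cells) and 16 h (140 cells), and it had none of the OB1 markers among its 10 leading genes. At 4 h Krt15 was 8207 CPM in the Krt24 cluster and 711 in the Cpa4 cluster, and at 16 h it was 9577 and 477. The Cpa4 cluster held no cells at 0 h, so without it OB1 stood at 14821 CPM at 0 h and 8207 at 4 h. Krt14 differed far less between these clusters, at 18236 and 16051 CPM at 4 h.

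Krt14, the main type I partner of Krt5 in basal cells, had its highest levels in cluster 0. They were 14797, 22464, 25324, 25697, 28027 and 22790 CPM. In uHF.B they were 8816, 15914, 17532, 10724, 9322 and 8085 CPM. Cluster 0 was above uHF.B in 6 of 6 libraries, and in uHF.B the early libraries at 4 h and 16 h stood above the other 4.

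In the bulge Krt14 was low at 0 h and higher in each later library. OB1 held 3774, 17321, 12030, 6604, 5405 and 6211 CPM. OB3 held 2221, 8391, 6106, 5288, 3529 and 2519 CPM. The 4 h level was 4.59-fold the 0 h level in OB1 and 3.78-fold in OB3.

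OB2 had less Krt14 than OB3 in each library but that of 6 d. Its level was 243, 1491, 2306, 3491, 2525 and 3128 CPM. The value at 0 h (95% interval 197 to 297, counting error only) lay between the 196 CPM of Langerhans cells, the resident immune cells of epidermis, and the 314 CPM of T cells in the same library, and is not read as expression. In UMIs per cell it was 1.09, against 0.975 and 0.836 in these immune cells. OB2 was below OB1 in 6 of 6 libraries and below cluster 0 in 6 of 6, at -3.75 ± 1.14 on the log2 scale.

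Krt5, the type II partner, differed least between libraries in cluster 0, OB1, OB2 and OB3. In cluster 0 it stood at 6144, 5675, 9427, 10210, 9672 and 7525 CPM. Over the 6 libraries the highest value was 1.80 times the lowest in cluster 0, 1.60 times in OB3 and 2.09 to 2.18 times in OB1, OB2 and uHF.B, while for Krt15 the same ratio was 9.31 in cluster 0 and 10.2 in uHF.B. For Krt14 it was 1.89 in cluster 0 and 4.59 in OB1, and in uHF.B, at 2.17, it was as small as that of Krt5. OB1, OB2, OB3 and uHF.B held between 2287 and 6716 CPM of Krt5, and each was below cluster 0 in 6 of 6 libraries. Among these 4 types the order was not fixed: OB3 was above OB1 in 5 of 6 libraries by 0.23 ± 0.36, and OB1 above uHF.B in 4 of 6 by 0.04 ± 0.26 on the log2 scale.

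**Figure D2:**
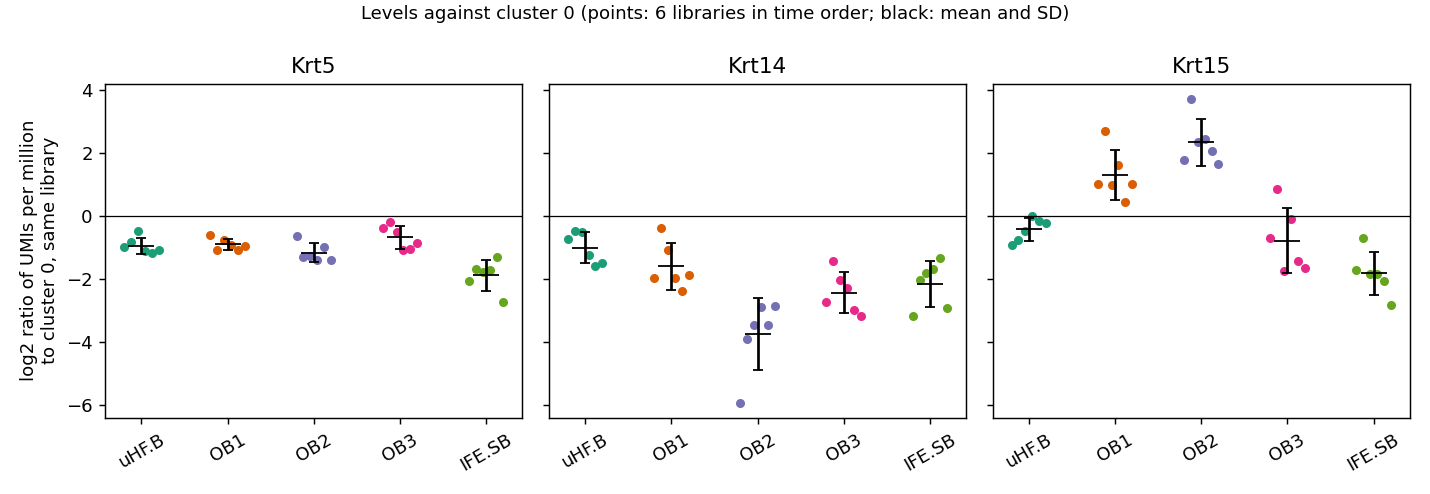
Log2 ratio of CPM to cluster 0 in the same library for uHF.B, OB1, OB2, OB3 and IFE.SB, with 1 point per library in time order and the mean and SD over 6 libraries in black. Krt15 lies above 0 in OB1 and OB2 in 6 of 6 libraries, while Krt5 and Krt14 lie below 0 in all 5 types.

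The suprabasal cells carried less of each gene than their basal neighbours in the same library. IFE.SB cells, which switch to Krt1 and Krt10 as they leave the basal layer, were below cluster 0 in 6 of 6 libraries for Krt5 (-1.89 ± 0.48), Krt14 (-2.17 ± 0.72) and Krt15 (-1.83 ± 0.69, log2 scale). In uHF.SB against uHF.B the differences were -2.13 ± 0.51 for Krt5, -1.05 ± 0.40 for Krt14 and -1.22 ± 0.47 for Krt15, again in 6 of 6 libraries. With uHF.SB taken as its Defb6 cluster alone, Krt15 was lower in 4 of 6 libraries, at -0.26 ± 0.77, which is within its spread. Within IFE.SB the cluster led by Lce1m and Lor, late genes of the granular layer, held 257 to 1547 CPM of Krt5 over the 6 libraries, against 1859 to 5420 in the cluster led by Mt4 and Krt1.

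By median over libraries with at least 20 cells of a type, the order for Krt15 was OB2 (15246 CPM), OB1 (7294), IRS3 (3745), cluster 0 (3706), uHF.B (2921), IRS2 (2043), inner bulge cells (IB, 1850) and OB3 (1697), where IRS marks clusters named by the inner root sheath lists. IRS2 was led by Cldn10, Basp1 and Hsd11b2, and 2 of its 7 markers were higher in the cluster than in the other cells in every library. For Krt14 it began with cluster 0 (24057), uHF.B (10023), IRS3 (9315), OB1 (6407), IFE.SB (6271) and uHF.SB (6168). For Krt5 it began with cluster 0 (8476), OB3 (4743), OB1 (4263), uHF.B (3893) and OB2 (3868). Several neighbours in these orders did not keep their place: IRS3 was above cluster 0 for Krt15 in 1 of 3 libraries, and OB1 above IFE.SB for Krt14 in 4 of 6. IB cells were few and uneven: Krt15 was 25360 CPM in the 20 cells of 0 h, 563 in 128 cells of 4 h and 1195 in 100 cells of 16 h. IRS3 had at least 20 cells only at 2 d, 4 d and 6 d.

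The balance of the type I genes is given as a share of UMIs of a 3′ assay, which are not scaled by transcript length, and is compared between cell types and times for the same pair of genes. Krt15 made up 99.03% of the Krt14 and Krt15 UMIs of OB2 at 0 h and 79.1% to 89.6% at later times. In OB1 the share was 79.7%, 22.6%, 35.9%, 53.0%, 56.9% and 56.3%. In cluster 0 it was 33.1% at 0 h, 3.38% at 4 h and 8.60% to 15.9% afterwards. The share at 4 h was the lowest of the course in cluster 0, uHF.B and OB1, and the uHF.B share was 33.5% at 4 d, beside 30.5% at 0 h. T cells, as background, followed the libraries with 36.7% at 0 h and 2.64% at 4 h.

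**Figure D3:**
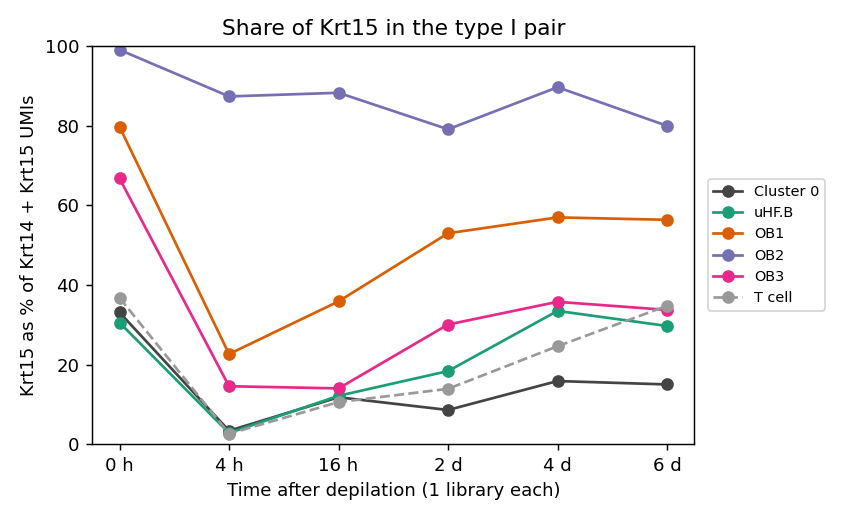
Krt15 as a percentage of the summed Krt14 and Krt15 UMIs by time after depilation, 1 library per time point, for 5 epithelial types and T cells. OB2 stays at 79.1% or above, and OB1 goes from 79.7% at 0 h to 22.6% at 4 h and 56.3% at 6 d.

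Per cell, the difference between 0 h and 4 h was seen across cluster 0. Each cell was thinned at random to 2000 UMIs and shallower cells were left out, which kept 3330 of 3350 cells of cluster 0 and 245 of 392 T cells at 4 h. In cluster 0 the median cell had 14 Krt15 UMIs at 0 h (10th to 90th percentile of cells 5 to 27) and 1 at 4 h (0 to 4). The whole distribution was lower, since the 90th percentile at 4 h lay below the 10th at 0 h. Krt15 was found in 99.5% of these cells at 0 h and in 53.1% at 4 h (exact 95% interval 51.4 to 54.8), or 79.5% without thinning at a median depth of 9021 UMIs. Among T cells of that library the thinned share was 4.49% and the unthinned 4.08%, at a median of 2214.5 UMIs.

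Krt14 was spread unevenly over OB2 cells. The median OB2 cell had 0 to 2 Krt14 UMIs in each library, while the 90th percentile was 1 at 0 h, 7.5 at 4 h and 17 at 6 d. At 0 h 38.1% of OB2 cells had a Krt14 UMI (27.7 to 49.3), below the 44.7% of T cells, and unthinned the shares were 69.0% and 54.2% at median depths of 4247 and 2701.5. At 4 h and 2 d the OB2 share was also below that of T cells although its CPM was above theirs, so no order is read from these shares. At 6 d the thinned shares were 65.3% (58.5 to 71.6) in OB2 and 30.8% in T cells, and unthinned 76.8% and 41.1% at median depths of 4259.5 and 2515.5. In OB3 Krt15 was likewise uneven, with 30.2% to 62.7% of cells holding a UMI, against 4.49% to 31.3% of T cells, and a median of 0 to 2 UMIs.

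**Figure D4:**
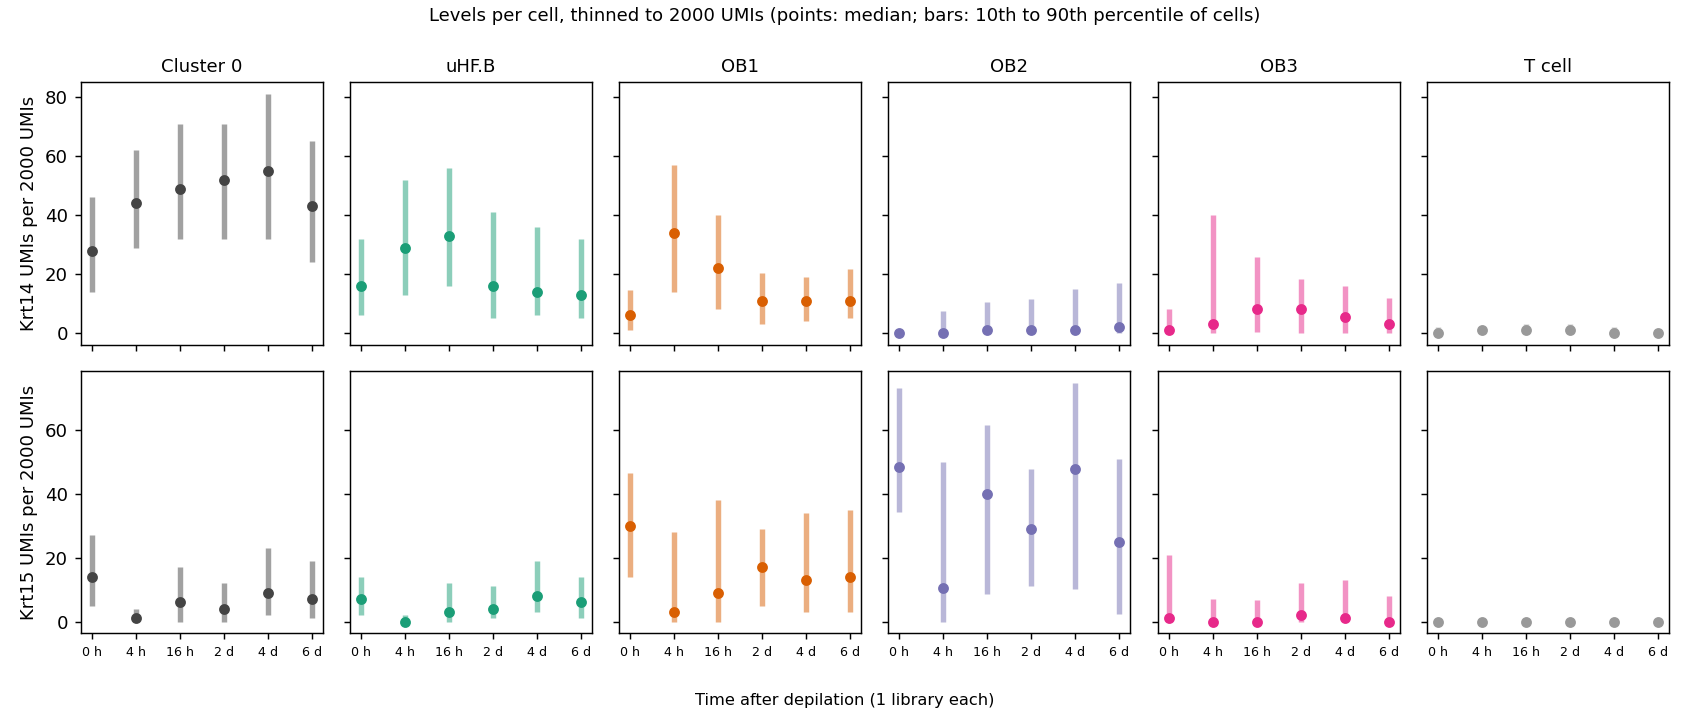
Krt14 (upper row) and Krt15 (lower row) UMIs per cell after thinning to 2000 UMIs, by time after depilation, with the median cell as a point and the 10th to 90th percentile of cells as a bar. In cluster 0 the Krt15 bar at 4 h (0 to 4) does not reach that at 0 h (5 to 27), and T cells stay near 0.

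Across thinned cells of 1 type and library, Krt14 and Krt15 had a negative median correlation in all types but OB3. Spearman's rho between Krt14 and Krt15 had a median over libraries of -0.33 in cluster 0, -0.24 in OB1, -0.33 in OB2 and -0.18 in uHF.B, but 0.34 in OB3, where it was positive in 6 of 6 libraries (0.29 to 0.52). In cluster 0 the 4 h library stood apart at 0.15, with the other 5 between -0.41 and -0.25. The 4 h value was also the highest of the course in OB1 (0.015) and uHF.B (-0.037). At 4 h Krt15 counts were low, with a median thinned cell of 1 UMI in cluster 0 and 0 in uHF.B. Krt5 went with Krt14 in cluster 0 (median 0.31) and uHF.B (0.43), and with Krt15 in OB1 (0.47) and OB2 (0.43). These are descriptions over cells that share a library, with no test. The pairing in OB1 includes the Cpa4 cluster, which was low in both Krt5 (1034 CPM at 4 h, against 3854 in the Krt24 cluster) and Krt15.

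Over the time course, 0 of the 3 genes were called in cluster 0, uHF.B, OB1, OB2 or OB3 at a false discovery rate of 0.05 in a quasi-likelihood F test of a spline of hours (edgeR). The test left few calls for any gene: 0% of all genes tested in cluster 0, uHF.B, OB1 and OB2, and 0.0172% in OB3. At an unadjusted p under 0.05 there were 82, 255, 620, 195 and 215 genes in these types in the order given, and DESeq2's likelihood ratio test called 19, 28, 230, 14 and 38 genes, none of them one of the 3 keratins. The smallest unadjusted p among the members was 0.0365 in edgeR, for Krt14 in OB2, with a linear trend of 1.73, the fitted slope on the log2 scale times the length of the course (adjusted p = 1.0). With 6 libraries and 4 fitted coefficients, 2 residual degrees of freedom remained.

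The calls changed with the time scale. With log2(hours + 1), which spaces the early libraries more widely, Krt14 was called in OB1 (adjusted p = 0.00764), OB2 (0.0143) and OB3 (0.000956) and Krt15 in OB3 (0.00017, edgeR). The share of all genes called on that scale was 13.7% in OB1, 2.06% in OB2 and 13.7% in OB3, 0% in cluster 0 and 0.0256% in uHF.B. The linear trend of Krt14 on that scale was 3.17 in OB2, -0.34 in OB1 and -0.30 in OB3, and that of Krt15 in OB3 was -1.26. The sign of such a trend does not describe a course that is highest at 4 h, as that of Krt14 was in OB1 and OB3. Krt5 was called in none of the 5 types on either scale.

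On the scale of hours, calls also appeared when 1 library was left out. Without 0 h, Krt14 was called in OB1 (trend -1.62, adjusted p = 8.35e-10 from edgeR) and OB2 (0.66, 0.0418), and Krt15 in OB2 with its trend turned from -0.40 to 0.14 (0.0489). Of all genes, 1786 of 10747 were then called in OB1 and 422 of 6932 in OB2. Without 4 h, Krt14 was called in OB2 (2.14, 0.0273), where 109 of 6968 genes were called. These fits have 1 library fewer and the same number of coefficients.

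Genes known to work with the basal keratins were counted from fixed lists. Of the 9 anchors of keratin at the basement membrane, 6 desmosome proteins and 6 regulators tested in each type, 0 were called on the scale of hours in any of the 5 types. On the log2(hours + 1) scale, 4 of 9 anchors were called in OB1, all with negative trends (among them Lamb3, a laminin chain, -1.52, Lama3 -1.31 and the integrin Itgb4 -1.06), 3 of 9 in OB3, all negative, and Itgb4 alone in OB2. Col17a1 had a trend of -1.33 in OB1 and was not called (adjusted p = 0.0516). None was called in cluster 0 or uHF.B. The median trend of the anchors was -1.06 in OB1, against 0.0856 over all genes. Of the desmosome genes, 3 of 6 were called in OB1 with negative trends (Ppl -2.11, Jup -1.46 and Evpl -1.03) and 2 of 6 in OB3 (Jup and Evpl, both at -1.12). In OB1 each of these 3 was highest at 4 h, so the negative trend does not describe an even course: Ppl was 79.1 CPM at 0 h and 172 at 4 h, and Jup 310 and 697. Itgb4 (146 and 387 CPM) and Lama3 (99.1 and 297) were also highest at 4 h there, as were Jup and Evpl in OB3. Of the regulators, Trp63, the p63 factor that sustains basal cells, was called with a positive trend in OB1 (1.31) and OB3 (1.33). Klf4, a factor of differentiation, was called with a negative trend in both (-2.69 and -2.92), and Klf5 in OB3 (-1.33). The course of Klf4 was not particular to these types. It was also highest at 0 h in cluster 0, uHF.B, OB2 and T cells (2177 CPM at 0 h and 944 at 6 d in T cells), though not in IFE.SB.

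Other keratins were also followed in OB1. On the log2(hours + 1) scale 4 of 11 were called: Krt6a, a wound-associated keratin, with a trend of -3.77, Krt80 with -3.40, the bulge gene Krt24 with -2.81 and the upper HF gene Krt79 with 3.34. Krt24, Krt79 and Krt6a were also among the markers that named clusters. Krt79 in OB1 was 10.6, 4.45, 17.9, 54.7, 80.2 and 58.0 CPM. In CPM, T cells held more in each library (15.8, 11.3, 33.1, 88.6, 80.9 and 69.0). OB1 cells held more UMIs than T cells, so this does not settle the part of free RNA. The trend of Krt79 in OB1 is not read as expression. Krt6a in OB1 was 386, 3476, 1281, 233, 55.8 and 112 CPM, so its highest level, like that of Krt14, was at 4 h. In OB2 3 keratins were called, all with positive trends (Krt17 0.95, Krt6a 0.39 and Krt79 5.36). Krt79 in OB2 was above the T cell level only at 4 d (287 against 80.9 CPM) and 6 d (104 against 69.0). Krt6a in OB2 was 123, 5466, 2217, 443, 311 and 1045 CPM and Krt17 was 762, 9318, 3545, 822, 3215 and 5913, both highest at 4 h, and on the scale of hours the trend of Krt6a had the other sign, at -2.13. In OB3 Krt16 (-1.65), Krt80 (-1.80) and Krt79 (6.18) were called, with Krt16 highest at 16 h. Krt16 in OB3 was above the T cell level at 16 h (144 against 55.8 CPM) and barely at 2 d (45.7 against 44.0). In the other libraries it was below that level, so its course in OB3 is not separated from free RNA. None of the other keratins was called on the scale of hours.

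The genes whose pattern was most like a member's were found over 82 sums of a cell type and library, by Pearson's r of log2(CPM + 1) among 2881 genes. For Krt5 they were Col17a1, a hemidesmosome collagen (0.91), Trp63 (0.90), the laminin receptor gene Bcam (0.90), Itga6 (0.89), an integrin of the hemidesmosome, and Palmd (0.85). For Krt14 they were Itga6 (0.84), Krt5 (0.81), Col17a1 (0.79), Trp63 (0.79) and Gnai1 (0.78). For Krt15 they were Palmd (0.85), Capns2 (0.83), Nbl1 (0.82), Krt5 (0.80) and Tenm2 (0.80), and its r with Krt14 was 0.57. These values are descriptions, and the sums of 1 library share its free RNA.

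Cycling cells were compared with non-cycling cells of the same type and library, to ask whether the basal keratins differ in dividing cells. A cell was called cycling with at least 2 UMIs of 10 cycling markers after thinning to 2000 UMIs, and the part of free RNA in this call was not tested. In cluster 0 Krt15 was lower in cycling cells, at -0.32 ± 0.06 on the log2 scale (fit ± SE, adjusted p = 0.000667 from edgeR with the library as block), in 5 of 6 libraries. With cycling called from 1 UMI it was at -0.17 and not called (adjusted p = 0.124, edgeR). In uHF.B Krt14 was lower, at -0.30 ± 0.03 (adjusted p = 8.78e-10), in 6 of 6 libraries, and Krt5, at -0.17 ± 0.03 (adjusted p = 0.00027), in 4 of 6. With cycling called from 3 UMIs, Krt5 there was at -0.13 and not called (adjusted p = 0.0908, edgeR). Such calls were common. Of all genes tested, 43.8% were called in either direction in cluster 0, 32.6% in uHF.B and 6.2% in OB1. Those called lower were 26.7%, 19.3% and 2.81%, and those called higher 17.1%, 13.3% and 3.39%.

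The other members were not called. In cluster 0 the difference was -0.03 ± 0.04 for Krt5 and -0.07 ± 0.04 for Krt14. Krt15 in uHF.B was at -0.16 ± 0.14 (adjusted p = 0.43), with the 4 h library apart: there cycling cells held 745 CPM and non-cycling cells 423, and without that library Krt15 was called at -0.25 (adjusted p = 3.83e-06). In OB1, where 2.81% of genes were called lower, Krt15 was at -0.53 ± 0.19 (adjusted p = 0.246), below non-cycling cells in 5 of 6 libraries. The library of 16 h alone was higher (0.57). Cycling OB1 cells were few at 0 h, 4 h, 16 h and 2 d (29, 14, 15 and 25). Leaving out 0 h (-0.54, adjusted p = 9.63e-05), 16 h (-0.69, 1.12e-19) or 2 d (-0.48, 0.0322) brought a call of Krt15 in edgeR. So did cycling called from 3 UMIs (-0.83, 1.95e-14, in 3 libraries) and no filter on low counts (-0.57, 8.19e-09). From 1 UMI, with DESeq2, with doublets kept or without normalization factors Krt15 was not called. Krt5 in OB1 was at -0.20 ± 0.08 (adjusted p = 0.116) and Krt14 at -0.17 ± 0.08 (adjusted p = 0.297). Krt5 was called in edgeR without 4 h (-0.21, adjusted p = 0.0457) and from 3 UMIs (-0.37, 0.00169, in 3 libraries), and Krt14 without 0 h (-0.24, 0.0479) and without 2 d (-0.25, 0.027). At 4 d, the library with the most cycling OB1 cells (236), Krt15 was 4608 CPM in cycling and 8461 in non-cycling cells.

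These differences are relative to the other genes of the cell. Cycling cells held more UMIs in all, in cluster 0 at 0 h 10942 against 8689 per cell, and in UMIs per cell Krt14 and Krt5 were higher in cycling cells of cluster 0 and uHF.B in 6 of 6 libraries, and so was Krt15 in 5 of 6 in cluster 0 and 6 of 6 in uHF.B, but in 1 of 6 in OB1. Scaling by TMM put the median of all genes at -0.0728 in cluster 0, and scaling by the totals alone at 0.0449. On totals alone Krt15 in cluster 0 (-0.19, adjusted p = 0.0881) and Krt5 in uHF.B (-0.03, adjusted p = 0.573) were not called, Krt5 and Krt14 in cluster 0 turned to 0.10 and 0.06, and the genes called higher and lower there went from 2045 and 3199 to 3109 and 1729. Krt14 in uHF.B was called at -0.16 (adjusted p = 0.000117). Without the 0 h library Krt15 in cluster 0 was at -0.29 and not called (adjusted p = 0.0587).

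**Figure D5:**
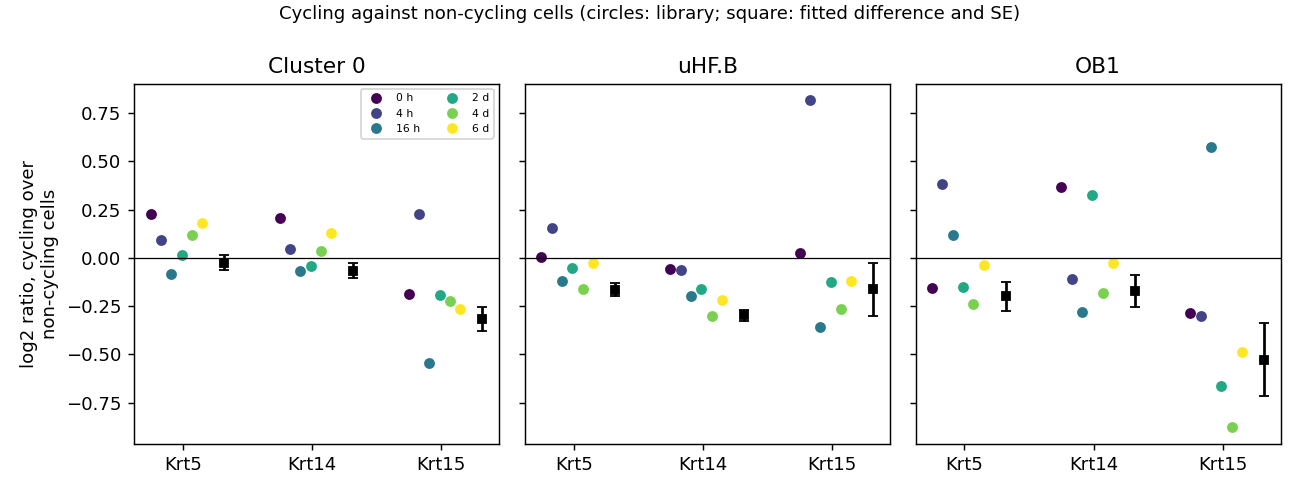
Log2 ratio of cycling to non-cycling cells for the 3 genes in cluster 0, uHF.B and OB1, with circles for the CPM ratio of each library and a square with its SE for the edgeR fit with TMM scaling. Krt14 in uHF.B lies below 0 in 6 of 6 libraries, and Krt15 at 4 h in uHF.B stands apart above 0.

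Of the partner genes, 8 of 9 anchors were lower in cycling cells in both cluster 0 and uHF.B and 1 of 9 in OB1 (Col17a1, -0.52). The largest differences among them were for Lama3 (-0.64 in cluster 0, -0.72 in uHF.B) and Dst, which links keratin to the hemidesmosome (-0.57 and -0.62). All 6 desmosome genes tested were lower in uHF.B and 5 of 6 in cluster 0, with Dsp, the desmosome plaque protein, at -0.41 and -0.36, and Dsp alone was called in OB1 (-0.38). The median over the anchors was -0.39 in cluster 0 and -0.45 in uHF.B, against -0.0728 and -0.0772 over all genes. Of the 6 regulators, 5 were lower in cluster 0, 6 in uHF.B and 1 in OB1 (Klf4, -0.39). Of 12 other keratins, 5 were called in cluster 0, with Krt1 (-1.18), Krt16 (-0.74), Krt10 (-0.40) and Krt77 (-0.36) lower and Krt18 (0.99) higher, and 8 were called lower in uHF.B. In CPM, Krt10 and Krt77 were below the T cell level in both types in each library but that of 4 d. Cells of both types held more UMIs than T cells, so this does not settle the part of free RNA. The differences of Krt10 and Krt77 are not read as expression. Krt18 was scarce in cluster 0, at 0.155 to 6.36 CPM. In OB1 1 of 11 was called, Krt6a at -0.90. Of all genes tested, 43.8% were called in either direction in cluster 0, so the 5 of 12 keratins there do not stand out. Those called lower were 26.7% of all genes in cluster 0, 19.3% in uHF.B and 2.81% in OB1.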

How the data were processed

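The authors aligned reads with Cell Ranger 6.1.2 to mm10 (per the labels and the submitters' processing notes) and deposited filtered matrices of UMI counts, one value for each gene in each barcode, which were not normalized. The treatment of intronic reads is not given in the sources used here. Cells with 500 to 7000 genes and at most 10% mitochondrial UMIs were kept (55177 of 61031 barcodes), and the 4675 cells with the highest Scrublet scores (scanpy 1.11.5), in numbers that grow with the barcodes of a library, were removed as doublets. Libraries were integrated with Seurat 5.3.0 (2000 variable genes, 30 principal components, resolution 0.2 for all cells and 0.4 for HF cells) without 437 genes: members, listed genes and genes that correlated with the cell cycle. Clusters were named by the list whose markers had the largest mean log2 difference from other cells, with at least 3 markers higher by 0.5 and found in 10% of cells. Some listed keratins (Krt1, Krt10, Krt6a, Krt24, Krt75, Krt77, Krt79) are also naming markers.

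UMI counts were summed per cell type and library. Time courses were fitted with edgeR 4.0.16 (TMM, filterByExpr, robust quasi-likelihood, natural cubic spline with 3 degrees of freedom) and cycling cells with the library as block, with Benjamini-Hochberg adjustment over all genes tested. Both fits were also run on simulated counts with the same dispersion for all genes and, for time, changes linear in hours. That setting differs from courses that turn at 4 h, so nothing is concluded from it here. DESeq2 1.42.0 was an alternative. Levels between cell types were not tested, because the types come from clustering the same cells. Cells of 1 library are not replicates, and intervals on counts (95%, exact Poisson or Clopper-Pearson) cover counting error only. Named genes were the members, the 5 genes most like each (mean of at least 50 CPM) and up to 4 per list with the largest differences. Members, lists and tests were chosen with earlier results of these data known. Values of 1 listed gene are not reported here.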

Additional observations from a re-analysis of the deposited data

How the results depend on the processing

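No paired analysis was possible because each time point has 1 library, while cycling and non-cycling cells were compared within libraries. Levels between cell types kept their direction under every alternative run, and moved beyond their spread as follows. With TMM-scaled CPM, Krt5 against cluster 0 was -1.26 in OB1, -1.52 in OB2 and -1.15 in OB3. With the T cell level subtracted, Krt14 in OB2 was -4.91. That mean includes 0 h, where OB2 (243 CPM) lay below T cells (314 CPM) and was set to a floor of 3 UMIs. The size of the shift therefore depends on that floor. Medians over cells had 0.5 added, and the size of a difference depends on this where a median is near 0. In OB3 the median thinned cell held 0 Krt15 UMIs at 4 h, 16 h and 6 d. By the median over cells, Krt14 and Krt15 against cluster 0 were -5.42 (Krt14, OB2), -3.63 and -3.80 (OB3). Krt14 against OB1 was -3.67 in OB2, and Krt14 and Krt15 in OB3 against OB1 were -1.88 and -5.03. IFE.SB was at -2.70, -3.61 and -2.9996 for Krt5, Krt14 and Krt15, and uHF.SB at -4.10 for Krt5 and -2.67 for Krt15, or -0.26 for Krt15 with its Defb6 cluster alone, an alternative chosen after seeing the data. Doubling the clustering resolution gave -1.57 for Krt15 in OB3 against OB1. For the time course, the log2(hours + 1) scale gave Krt5 trends of 0.20 (uHF.B), 0.094 (OB1) and 0.011 (OB2), turned in sign, the rank scale 0.059 in uHF.B, and no normalization 0.072 in OB1 and 0.043 in OB2. Krt14 was called on the log2 scale at -0.34 in OB1, 3.17 in OB2 and -0.30 in OB3, and on the rank scale at -0.69 in OB3, and Krt15 in OB3 at -1.26 and -1.12. Leaving out 1 library gave trends from -0.19 to 1.59 (Krt15, cluster 0), -0.35 to 0.082 (Krt5, uHF.B), -0.43 to 0.094 (Krt5, OB1), -1.62 to -0.32 (Krt14, OB1), -0.71 to 0.27 (Krt15, OB1), -0.40 to 0.42 (Krt5, OB2), 0.66 to 2.14 (Krt14, OB2), -0.70 to 0.14 (Krt15, OB2) and -1.36 to 0.00133 (Krt15, OB3). For cycling cells, no normalization gave 0.097 and 0.057 for Krt5 and Krt14 in cluster 0, -0.19 for Krt15 there, -0.030 for Krt5 in uHF.B and 0.015 for Krt14 in OB1. A call from 1 UMI gave -0.17 for Krt15 in cluster 0, and from 3 UMIs -0.13 for Krt5 in uHF.B (neither then called) and -0.37 and -0.83 for Krt5 and Krt15 in OB1. Without the filter Krt15 in OB1 was -0.57, and with doublets kept Krt15 in uHF.B was -0.24 and Krt14 in OB1 0.061. Leaving out 1 library gave -0.041 to 0.021 (Krt5) and -0.37 to -0.24 (Krt15) in cluster 0, -0.25 to -0.093 (Krt15) in uHF.B, and -0.21 to -0.12 (Krt5), -0.25 to -0.082 (Krt14) and -0.69 to -0.38 (Krt15) in OB1. Genes called over time in OB1 went from 0 to 487 on the rank scale, 165 without the filter, 74 without the Cpa4 cluster and 102 to 1786 without 1 library, and reached 295 in uHF.B and 422 in OB2 (each without 1 library) and 798 in OB3 (log2 scale). Genes called between cycling and non-cycling OB1 cells went from 628 to 170 (1 UMI), 1860 (3 UMIs), 222 (DESeq2), 195 (doublets kept), and 186 and 279 without 4 d and 6 d. The causes were not tested.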
